A study of Mus musculus with 12 samples.

Results

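The genes described here are 10 heat shock chaperones of the cytosol and the mitochondrion: Hspa1a, Hspa1b, Hspa8, Hsp90aa1, Hsp90ab1, Hsph1, Dnajb1, Hspb1, Hspd1 and Hspe1. They were taken by symbol from a count table of 55357 genes in 12 mouse liver libraries, and all 10 had a row and passed the filter on low counts. The mice were male C57BL/6J animals whose Ppara gene carried loxP sites on both alleles (PPARα fl/fl). PPARα is a nuclear receptor that drives fatty acid oxidation genes in the liver. Animals that also carried one AlbuminCre transgene (AlbuminCre Tg/+) lost the gene in hepatocytes and are called KO, and AlbuminCre +/+ mice, with a floxed but intact gene, are called WT. Diets began at 7 weeks of age and ran for 6 weeks, so that livers were taken at 13 weeks. Each genotype received either chow or CDAHFD, a choline-deficient, amino acid-defined, high-fat diet used to produce steatohepatitis. The groups held 4 WT chow, 3 WT CDAHFD, 2 KO chow and 3 KO CDAHFD libraries, each from 1 liver. Cre driven by the albumin promoter acts in hepatocytes, so other liver cells of a KO mouse keep Ppara.

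Heat shock chaperones bind unfolded or partly folded proteins and use ATP cycles to refold them, hold them or pass them on. Heat shock factor 1 is held inactive by chaperones in resting cells. When unfolded protein draws the chaperones away, it forms trimers, binds heat shock elements in promoters and raises transcription of the inducible members. In the cytosol, Hspa8 is the constitutive Hsp70 and Hspa1a and Hspa1b are its stress-inducible relatives, Dnajb1 is an Hsp40 that stimulates their ATPase, and Hsph1 is an Hsp110 that exchanges their nucleotide. Hsp90aa1 and Hsp90ab1 encode the inducible and the constitutive Hsp90, which mature kinases and steroid receptors. Hspb1 is a small heat shock protein that holds unfolded proteins without ATP. Hspd1 (Hsp60) and Hspe1 (Hsp10) form the folding chamber of the mitochondrial matrix.

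A heat shock element is a run of alternating GAA and TTC units set 2 bases apart. RefSeq promoter windows of 300 bases (250 before and 50 after a gene start, GRCm38.p6) were found for 7 of the 10 genes. Some genes had more than 1 window. A pair of units, GAANNTTC or TTCNNGAA, was present in a window of 6 of those 7 genes and of 17% of the 27025 genes searched. Both patterns read the same on either strand, and matches could overlap. A run of 3 units occurred in 3 of the 7 genes, against 0.662% of all genes. These 7 are not separate draws, since Hspa1a and Hspa1b are near copies and Hspd1 and Hspe1 share their run. The Hspa1a and Hspa1b windows are shown because the pair gave unlike results below. The Hsph1 window is shown because Hsph1 was called lower in KO CDAHFD than in WT chow. The Hspe1 window is shown because it also covers 285 bases of a window of Hspd1, which was called lower on CDAHFD. Neither of these falls was called when counts were scaled by library size alone. Capitals mark bases in a pair of units.
Hspa1a, chr17:34972107-34972406, minus strand: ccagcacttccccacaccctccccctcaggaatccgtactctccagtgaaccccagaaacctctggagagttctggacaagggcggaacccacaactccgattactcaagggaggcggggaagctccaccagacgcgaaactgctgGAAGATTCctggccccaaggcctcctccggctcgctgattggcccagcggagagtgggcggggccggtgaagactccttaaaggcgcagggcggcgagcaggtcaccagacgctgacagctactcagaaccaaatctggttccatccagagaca
Hspa1b, chr17:34959189-34959488, minus strand: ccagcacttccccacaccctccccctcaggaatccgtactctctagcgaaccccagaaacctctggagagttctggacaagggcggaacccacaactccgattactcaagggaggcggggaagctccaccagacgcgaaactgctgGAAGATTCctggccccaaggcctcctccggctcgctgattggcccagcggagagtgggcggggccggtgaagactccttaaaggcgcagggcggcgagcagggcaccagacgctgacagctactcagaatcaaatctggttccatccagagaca
Hsph1, chr5:149636287-149636586, minus strand: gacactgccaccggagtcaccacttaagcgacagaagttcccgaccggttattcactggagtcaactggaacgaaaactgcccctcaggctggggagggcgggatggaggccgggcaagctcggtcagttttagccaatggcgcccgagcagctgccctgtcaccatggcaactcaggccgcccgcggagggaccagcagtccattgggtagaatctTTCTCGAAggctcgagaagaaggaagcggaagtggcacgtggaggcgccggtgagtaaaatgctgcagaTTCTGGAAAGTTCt
Hspe1, chr1:55087898-55088197, plus strand: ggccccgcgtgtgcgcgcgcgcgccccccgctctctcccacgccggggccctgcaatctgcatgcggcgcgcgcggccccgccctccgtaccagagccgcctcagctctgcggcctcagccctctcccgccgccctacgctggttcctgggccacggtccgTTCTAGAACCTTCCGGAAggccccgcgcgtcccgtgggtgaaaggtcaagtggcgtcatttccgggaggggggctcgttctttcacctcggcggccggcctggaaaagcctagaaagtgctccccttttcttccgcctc
The Hspa1a and Hspa1b windows differed at 4 of 300 bases and carried the same single pair of units, beginning at position -104. The run beginning at position -89 in the Hspe1 window held 3 overlapping pairs, and it lies in the stretch shared with Hspd1. A match is a description of the letters, not of binding.

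Library totals lay between 29906785 and 43551003 counts. Ppara, the targeted gene, was at 96.2 to 238 CPM (counts scaled to a common library size) in WT chow, 59.5 to 75.5 in WT CDAHFD, 14.4 and 38.7 in KO chow and 20.7 to 51.9 in KO CDAHFD. It was lower in KO chow than in WT chow (log2 fold change -2.68, SE 0.50, adjusted p = 0.00111), and each KO library lay below each WT library. CPM here are scaled by TMM factors, which assume that most genes do not change. These factors were 0.729 to 0.827 in WT chow and 1.03 to 1.26 in the other groups, so the choice of scaling moves WT chow against the rest. Scaling by library size alone raised the median of all genes against WT chow by 0.40 (KO chow), 0.51 (WT CDAHFD) or 0.57 (KO CDAHFD) on the log2 scale. The 6 hepatocyte markers summed to between 86700 and 104400 CPM in WT chow and to 72330 and 84410 in the KO chow pair, and all CDAHFD libraries lay between 43440 and 57240. The 6 macrophage markers summed to 232 to 434 CPM in WT chow and 794 to 1709 elsewhere, and those of stellate cells and cholangiocytes were likewise higher outside WT chow, with no listed marker at 0 in any group. All 4 cycling-cell markers were called higher than in WT chow in the other groups, with medians of 4.48 (KO chow), 4.08 (WT CDAHFD) and 3.96 (KO CDAHFD) on the log2 scale. The 4 globin genes of red cells summed to 68.8 to 84.4 CPM in WT CDAHFD and to 160 and 370.5 in KO chow, and all 4 were called higher in KO chow than in WT CDAHFD, by a median of 1.88. The part of cell composition in the results below was not tested, and in bulk liver fewer cells of a type and less RNA per cell cannot be told apart. Circadian clock genes also varied within groups: Arntl, which peaks in mouse liver about the end of the dark phase, was above Dbp, which peaks late in the light phase, in WT chow replicates 1 and 2, all WT CDAHFD libraries, KO chow replicate 1 and KO CDAHFD replicates 1 and 2, and below it in the remaining 4. No label gives the hour of sacrifice.

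Hsp90ab1, Hspd1 and Hspa8 were the most abundant of the 10 mRNAs per kilobase of exon, and Hspa1a the least. Length here is that of all annotated exons merged, 4301 bases for Hspa8 and 2999 for Hsp90ab1. Before division by length, the WT chow means were 1137 CPM for Hsp90ab1, 1022 for Hspa8 and 642 for Hspd1, so the order depends on the length used. On the scale of CPM per kilobase in WT chow, Hsp90ab1 was at 379, Hspd1 at 243 and Hspa8 at 238, followed by Hspe1 at 87.2, Hsp90aa1 at 74.0 and Hspb1 at 23.3. Hsph1 at 10.9, Dnajb1 at 8.32 and Hspa1b at 6.78 came next, and Hspa1a was at 0.296. The Hspa1a and Hspa1b levels depend on how reads were assigned, as set out below. Of neighbours in that order, Hspd1 and Hspa8 overlapped over the WT chow libraries, as did each neighbouring pair from Hspe1 down to Hspa1b. Together the 10 genes took 0.22% to 0.353% of counts in WT chow, 0.304% to 0.35% in WT CDAHFD, 0.364% and 0.49% in KO chow, and 0.312% to 0.322% in KO CDAHFD.

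**Figure D1:**
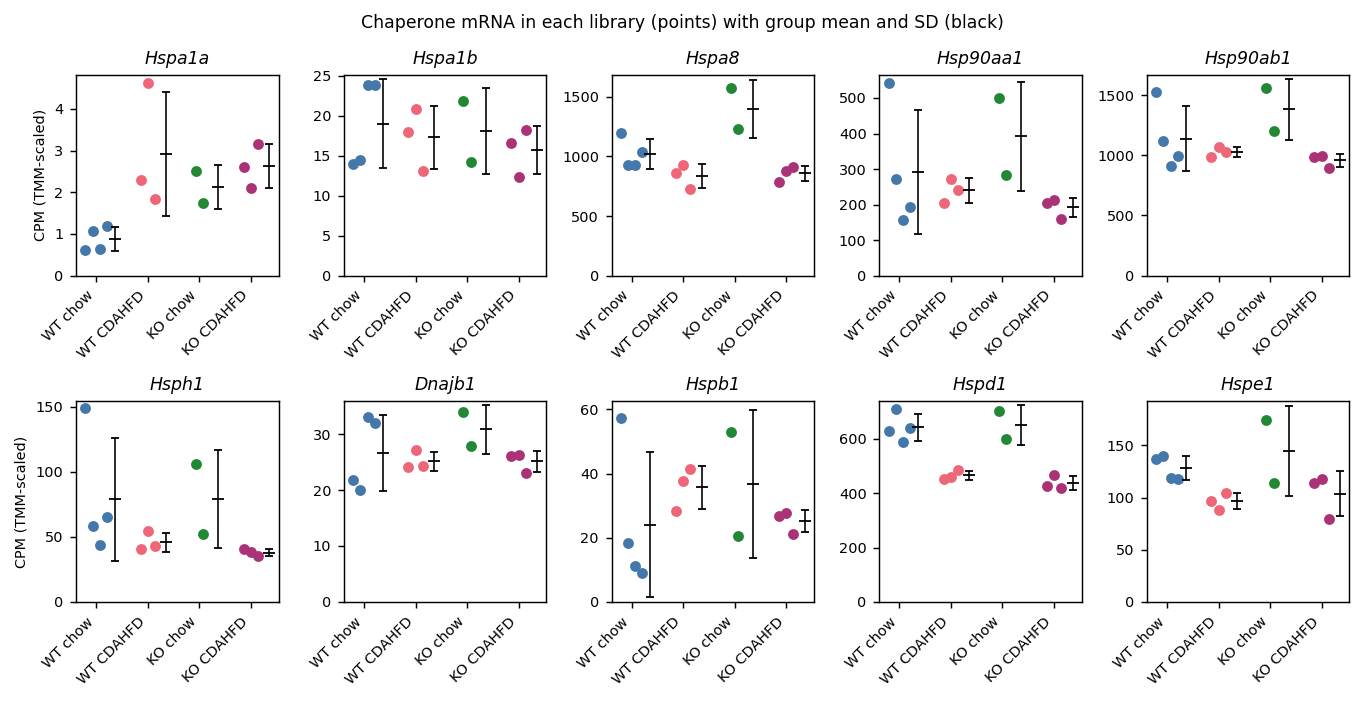
TMM-scaled CPM (vertical axes, from 0) of the 10 chaperone genes in each library, grouped by genotype and diet. Points are libraries in order of replicate number, and black marks are the group mean with its SD (n = 4, 3, 2 and 3). Hspd1 lies between 588 and 709 CPM in WT chow and between 418 and 485 in both CDAHFD groups, and WT chow replicate 1 is the highest WT chow library for Hsp90aa1, Hsph1 and Hspb1.

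The stress-inducible Hsp70 genes lie side by side on chromosome 17, Hspa1a at 34969190 to 34972156 and Hspa1b at 34956436 to 34959238 (GRCm38, minus strand), each with 1 exon. Hspa1a was at 0.621, 1.07, 0.634 and 1.19 CPM in WT chow, from 16 to 34 counts. It was at 2.29, 4.62 and 1.84 CPM in WT CDAHFD, at 2.50 and 1.75 in KO chow, and at 2.59, 2.11 and 3.16 in KO CDAHFD. Every library outside WT chow was above every WT chow library, and the other groups overlapped each other. By edgeR's quasi-likelihood test, KO chow exceeded WT chow by 1.27 on the log2 scale (SE 0.39, adjusted p = 0.0214). WT CDAHFD exceeded it by 1.74 (SE 0.35, adjusted p = 0.00123), and KO CDAHFD did so by 1.58 (SE 0.35, adjusted p = 0.00231). It held under library-size scaling, at 1.69, 2.31 and 2.21. In KO chow it was not called without KO chow replicate 1 (1.01, adjusted p = 0.174), where 1 KO chow library remained, nor without WT chow replicate 3 (1.15, adjusted p = 0.054).

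Hspa1b did not follow Hspa1a. It was at 14.0, 14.5, 23.8 and 23.8 CPM in WT chow, 18.0, 20.9 and 13.1 in WT CDAHFD, 21.9 and 14.2 in KO chow, and 16.6, 12.4 and 18.1 in KO CDAHFD. All 4 groups overlapped, and the adjusted p-values against WT chow were 0.854, 0.669 and 0.373. Hspa1b supplied most counts of the pair, so the summed counts of Hspa1a and Hspa1b moved little. The KO livers on chow and the WT livers on CDAHFD each stood 0.02 above WT chow for the sum (adjusted p = 0.96 and 0.94), and KO CDAHFD stood at -0.12 (adjusted p = 0.719).

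The assignment of reads within this pair is uncertain. The coding sequences, 1926 and 1929 bases with the stop codon, differed at 8 aligned bases and were 99.6% identical. Of all windows of 100 bases in the Hspa1a transcript, 48.6% also occurred in another gene, and 0% of the windows after its coding sequence occurred in Hspa1b. The Hspa1a exon also shares 564 bases with Gm20481 on the opposite strand, which had 0 counts. Whether reads there were left out of the Hspa1a count was not tested, so its level and share may not reflect mRNA abundance. The Hspa1a share of the pair's counts does not depend on the scaling between libraries. It was 4.26% (95% Wilson interval 2.64 to 6.80), 6.87% (4.96 to 9.45), 2.60% (1.67 to 4.02) and 4.77% (3.28 to 6.90) in the WT chow libraries. In the other 8 libraries it ran from 10.3% (8.44 to 12.4) in KO chow replicate 1 to 18.1% (16.1 to 20.3) in WT CDAHFD replicate 2. These intervals cover counting error only. The mean share was 4.62% ± 1.76 (SD, n = 4) in WT chow, 13.9% ± 3.68 (n = 3) in WT CDAHFD, 10.6% ± 0.473 (n = 2) in KO chow and 14.3% ± 0.715 (n = 3) in KO CDAHFD. Exact two-sided permutation tests against WT chow gave p = 0.0571 for WT CDAHFD, 0.133 for KO chow and 0.0571 for KO CDAHFD, each the smallest value these group sizes allow, and adjusted p = 0.0857, 0.133 and 0.0857 over the 3 tests. Because this measure was computed after the Hspa1a values were known, it is a second view of the same counts.

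**Figure D2:**
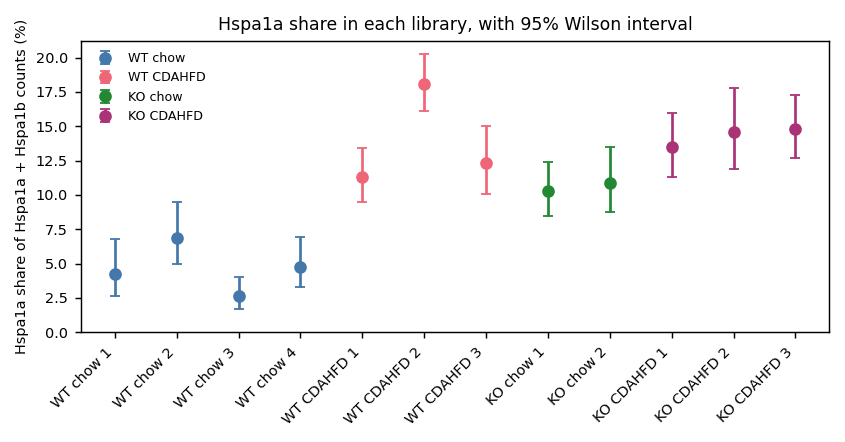
Share of Hspa1a in the summed Hspa1a and Hspa1b counts (vertical axis, percent, from 0) in each of the 12 libraries, with 95% Wilson intervals for counting error. The 4 WT chow libraries sit between 2.60% and 6.87%, and the other 8 between 10.3% and 18.1%.

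Hspa8, the constitutive Hsp70, was highest in KO chow. Its levels were 1193, 927, 931 and 1037 CPM in WT chow, 857, 924 and 729 in WT CDAHFD, 1570 and 1229 in KO chow, and 785, 878 and 909 in KO CDAHFD. Both KO chow libraries lay above all 10 others. The difference was 0.45 against WT chow (log2, SE 0.15, adjusted p = 0.0304) and 0.74 against WT CDAHFD (SE 0.16, adjusted p = 0.0188), and KO CDAHFD was below KO chow by -0.71 (SE 0.16, adjusted p = 0.0242). These calls rest on few libraries. When only the groups compared were fitted, the call against WT chow and that between KO groups were lost (adjusted p = 0.0719 and 0.07). Without KO chow replicate 1 none was made (0.28, 0.55 and -0.50, adjusted p = 0.302, 0.21 and 0.242), and the first was also lost without WT chow replicate 2 (0.42, adjusted p = 0.0592) or 3 (0.42, adjusted p = 0.0616). The second was lost without WT CDAHFD replicate 1 (0.76, adjusted p = 0.0674) or 3 (0.65, adjusted p = 0.0675), and the third without KO CDAHFD replicate 1 (-0.65, adjusted p = 0.0884). Scaled by library size alone, the first was kept (0.85, adjusted p = 9.1e-04) and the other comparisons were not called (0.59 and -0.50, adjusted p = 0.0599 and 0.0951). Against WT chow, neither CDAHFD group was called for Hspa8 with TMM scaling (adjusted p = 0.0941 and 0.136), while library-size scaling called KO CDAHFD higher (0.36, adjusted p = 0.048), below the median of all genes on that scale. Red-cell globin genes were also higher in KO chow than in WT CDAHFD, and their part in the Hspa8 difference was not tested. Of the 100-base windows of Hspa8, 28.2% occur in another annotated gene, most of them in the processed copy Gm15459.

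The Hsp90 genes varied widely within the chow groups. Hsp90aa1 was at 542, 272, 158 and 192 CPM in WT chow, 204, 273 and 242 in WT CDAHFD, 500 and 284 in KO chow, and 203, 212 and 161 in KO CDAHFD. Replicate 1 was the highest library of both chow groups, and the groups overlapped except that both KO chow libraries exceeded all CDAHFD libraries. Hsp90ab1 was at 1524, 1116, 910 and 999 CPM in WT chow, 989, 1070 and 1031 in WT CDAHFD, 1560 and 1205 in KO chow, and 987, 996 and 898 in KO CDAHFD. For Hsp90ab1 too, both KO chow libraries exceeded all CDAHFD libraries, and the groups otherwise overlapped. Neither gene was called in any comparison of the main fit to all 12 libraries. Other settings made single calls, Hsp90ab1 higher in KO chow than in WT chow under library-size scaling (0.68, adjusted p = 0.0137) and Hsp90aa1 lower in KO CDAHFD than in KO chow when every gene with a count was fitted (-1.02, adjusted p = 0.0219). With the clock score defined below as a covariate, both were called higher in KO chow than in WT CDAHFD (0.79 and 0.47, adjusted p = 0.0393 and 0.0389). In KO chow against WT chow the log2 fold changes were 0.43 for Hsp90aa1 (adjusted p = 0.412) and 0.28 for Hsp90ab1 (adjusted p = 0.247). Without WT chow replicate 1 they were 0.93 (adjusted p = 0.0122) and 0.47 (adjusted p = 0.0145), both past the threshold, while without KO chow replicate 1 that of Hsp90aa1 was -0.024 (adjusted p = 0.98). Counts of Hsp90aa1 per 100 counts of Hsp90ab1, a ratio within a library, were 35.6 and 32.0 in the replicates 1 of WT chow and KO chow and 17.3 to 25.5 in the other 10 libraries. Of the 100-base windows of Hsp90aa1, 38% occur in another annotated gene, most of them in Gm12346, and 0% of those of Hsp90ab1 do.

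Hsph1 and Dnajb1, the partners that drive the Hsp70 cycle, showed unlike patterns. Hsph1 was at 149, 58.5, 43.6 and 65.3 CPM in WT chow, 40.5, 54.2 and 43.2 in WT CDAHFD, 106 and 52.4 in KO chow, and 40.5, 38.0 and 35.2 in KO CDAHFD. All KO CDAHFD libraries were below every chow library. Hsph1 fell in KO CDAHFD against WT chow by 1.06 on the log2 scale (SE 0.36, adjusted p = 0.0252). This call was lost without WT chow replicate 1 (-0.52, adjusted p = 0.0741) and without any one KO CDAHFD replicate (-1.11, -1.06 and -1.01, adjusted p = 0.0557, 0.065 and 0.0756), and under library-size scaling (-0.47, adjusted p = 0.291). Dnajb1 was at 21.8, 20.0, 33.0 and 32.0 CPM in WT chow, 24.1, 27.1 and 24.2 in WT CDAHFD, 33.9 and 27.8 in KO chow, and 26.0, 26.2 and 23.0 in KO CDAHFD. WT chow split into a lower pair, replicates 1 and 2, and a higher pair, replicates 3 and 4. Dnajb1 was not called in any comparison with TMM scaling of all libraries. Library-size scaling called it higher in all 3 comparisons with WT chow (0.62 for KO chow and 0.49 and 0.53 for the CDAHFD groups, adjusted p = 0.0116, 0.0182 and 0.0111), where the medians of all genes were 0.40, 0.51 and 0.57.

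Hspb1, the small heat shock protein, was at 57.3, 18.4, 11.3 and 8.94 CPM in WT chow, 28.3, 37.7 and 41.3 in WT CDAHFD, 53.0 and 20.6 in KO chow, and 26.9, 27.6 and 21.2 in KO CDAHFD. WT chow replicate 1 was above every other library, while the other WT chow libraries were below every library of the other groups. With all libraries no difference from WT chow was called (0.62 for KO chow, 0.58 for WT CDAHFD, 0.07 for KO CDAHFD, adjusted p = 0.431, 0.376 and 0.924). Without WT chow replicate 1 all were called, at 1.52 (adjusted p = 0.0053), 1.48 (adjusted p = 0.0028) and 0.99 (adjusted p = 0.0249). Without KO chow replicate 1 the KO chow value turned to -0.21 (adjusted p = 0.874), and the KO CDAHFD value turned negative without WT chow replicate 2, 3 or 4 (-0.01, -0.14 and -0.18). Windows of Hspb1 shared with the pseudogene Hsp25-ps1 made up 44% of its 100-base windows.

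**Figure D3:**
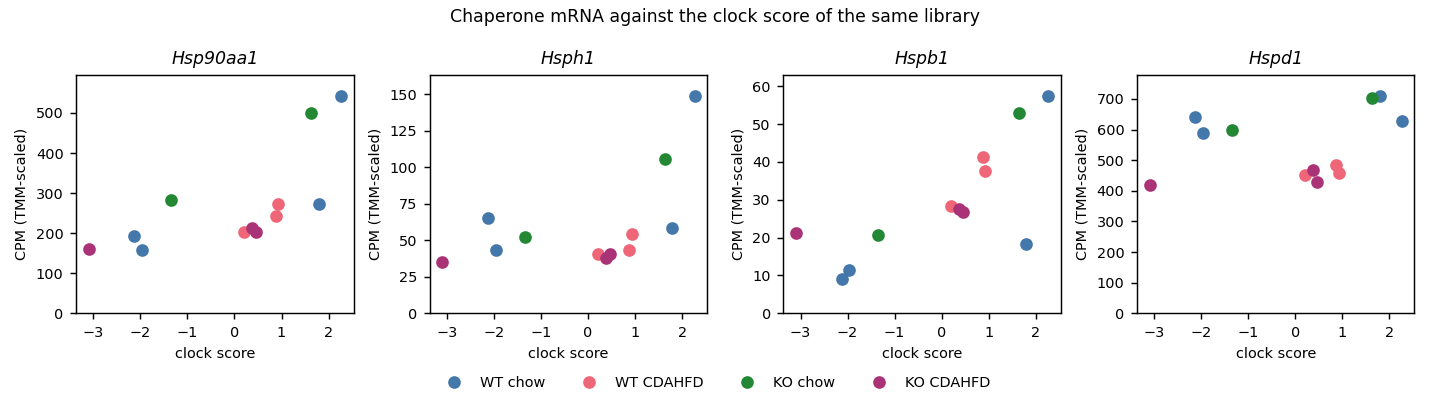
TMM-scaled CPM (vertical axes, from 0) of Hsp90aa1, Hsph1, Hspb1 and Hspd1 against the clock score of the same library (horizontal axes, in SD units), coloured by group. WT chow replicate 1 (score 2.26) and KO chow replicate 1 (score 1.64) hold the highest Hsp90aa1, Hsph1 and Hspb1 values, and the CDAHFD libraries lie below the chow libraries for Hspd1 at each side of the score.

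The clock score uses log2 CPM centred and SD-scaled for each gene. It is the mean of Arntl, Npas2, Clock and Cry1 minus the mean of Dbp, Tef, Nr1d1, Nr1d2, Per3 and Ciart. It was 2.26 in WT chow replicate 1, 1.79 in replicate 2, -1.96 in replicate 3 and -2.13 in replicate 4. In KO chow it was 1.64 and -1.34, in WT CDAHFD 0.20 to 0.92, and in KO CDAHFD 0.46, 0.38 and -3.09. The chow groups therefore spanned both ends of the score, while WT CDAHFD lay within a narrow band. With the score as a covariate, the Hspa1a, Hspa8 and Hspd1 calls above and below were made again, and Hsph1 was called in WT CDAHFD as well (-0.84, adjusted p = 0.0173). Among the 8 libraries with Arntl above Dbp, a choice made after seeing the data, Hsp90aa1 was called lower in WT CDAHFD (-0.76, adjusted p = 0.0282) and KO CDAHFD (-0.97, adjusted p = 0.0181) than in WT chow. Dnajb1 was called higher in KO chow (0.70, adjusted p = 0.00374), WT CDAHFD (0.27, adjusted p = 0.0498) and KO CDAHFD (0.32, adjusted p = 0.0393) there. The KO chow calls against WT chow were lost there for Hspa1a (1.54, adjusted p = 0.0676) and Hspa8 (0.57, adjusted p = 0.0553). That subset leaves 1 KO chow library, which is assumed to vary like the others.

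The mitochondrial pair was lower in the CDAHFD groups than in WT chow under TMM scaling, and past the threshold for Hspd1. Hspd1 (chromosome 1, 55077835 to 55088243, minus strand) was at 629, 709, 588 and 641 CPM in WT chow, 453, 459 and 485 in WT CDAHFD, 702 and 599 in KO chow, and 427, 468 and 418 in KO CDAHFD. The CDAHFD libraries of both genotypes were all below the chow libraries of both genotypes. Hspd1 fell by 0.46 in WT CDAHFD (log2, SE 0.10, adjusted p = 0.00262) and by 0.55 in KO CDAHFD (SE 0.10, adjusted p = 7.3e-04) against WT chow, and these calls were kept whichever library was left out. Scaled by library size alone, both turned to a small increase (0.097, adjusted p = 0.412, and 0.057, adjusted p = 0.634), below the median of all genes on that scale. No difference of KO chow from WT chow was detected (0.02, SE 0.12, adjusted p = 0.91), while library-size scaling gave 0.42 (adjusted p = 0.0071), near that scale's median of 0.40. Another annotated gene, mostly Hspd1-ps3, holds 23.4% of the 100-base windows of Hspd1, and 10% of those of Hspe1 also occur in another gene.

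Within KO livers, Hspd1 was lower on CDAHFD than on chow (-0.57, SE 0.12, adjusted p = 0.0196), and KO chow was above WT CDAHFD (0.48, SE 0.12, adjusted p = 0.0388). The first of these was lost without KO chow replicate 1 (-0.44, adjusted p = 0.177), KO CDAHFD replicate 1 (-0.55, adjusted p = 0.0695) or 3 (-0.54, adjusted p = 0.0544), and under library-size scaling (-0.37, adjusted p = 0.0743). The second was lost without either KO chow library (0.35 and 0.59, adjusted p = 0.295 and 0.0542), any one WT CDAHFD library (0.46, 0.47 and 0.51, adjusted p = 0.133, 0.12 and 0.0794) or KO CDAHFD replicate 1 (0.48, adjusted p = 0.0639), and under library-size scaling (0.33, adjusted p = 0.109). The first was also lost when only the groups compared were fitted (adjusted p = 0.0818), and the second when every gene with a count was (adjusted p = 0.06). The diet effects on Hspd1 in the genotypes were -0.46 and -0.57, and their difference was -0.11 (SE 0.16, adjusted p = 0.686, and -0.46 with adjusted p = 0.0384 under library-size scaling).

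Hspe1, which begins head to head with Hspd1 at 55088132 on the opposite strand, was at 137, 140, 119 and 118 CPM in WT chow, 96.8, 88.5 and 104 in WT CDAHFD, 175 and 114 in KO chow, and 114, 118 and 79.2 in KO CDAHFD. All libraries of both CDAHFD groups were below the WT chow libraries, in KO CDAHFD by a small margin (highest 118.1, against a lowest WT chow value of 118.3). Its log2 fold change in WT CDAHFD was -0.41 (SE 0.17, adjusted p = 0.0533), which missed the threshold. It passed without KO CDAHFD replicate 3 (adjusted p = 0.0264) or without KO chow replicate 1 (adjusted p = 0.0327) or 2 (adjusted p = 0.0313), with only the groups compared (-0.37, adjusted p = 0.0182), and with the clock score as a covariate (-0.48, adjusted p = 0.00291). Under library-size scaling it turned to 0.14 (adjusted p = 0.472), below the median of all genes on that scale. Hspe1 counts per 100 Hspd1 counts were 18.5 to 21.7 in WT chow, 19.3 to 21.5 in WT CDAHFD, 24.9 and 19.0 in KO chow and 18.9 to 26.7 in KO CDAHFD. The annotated exons share 112 bases on opposite strands, where a library without strand information cannot tell the genes apart.

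**Figure D4:**
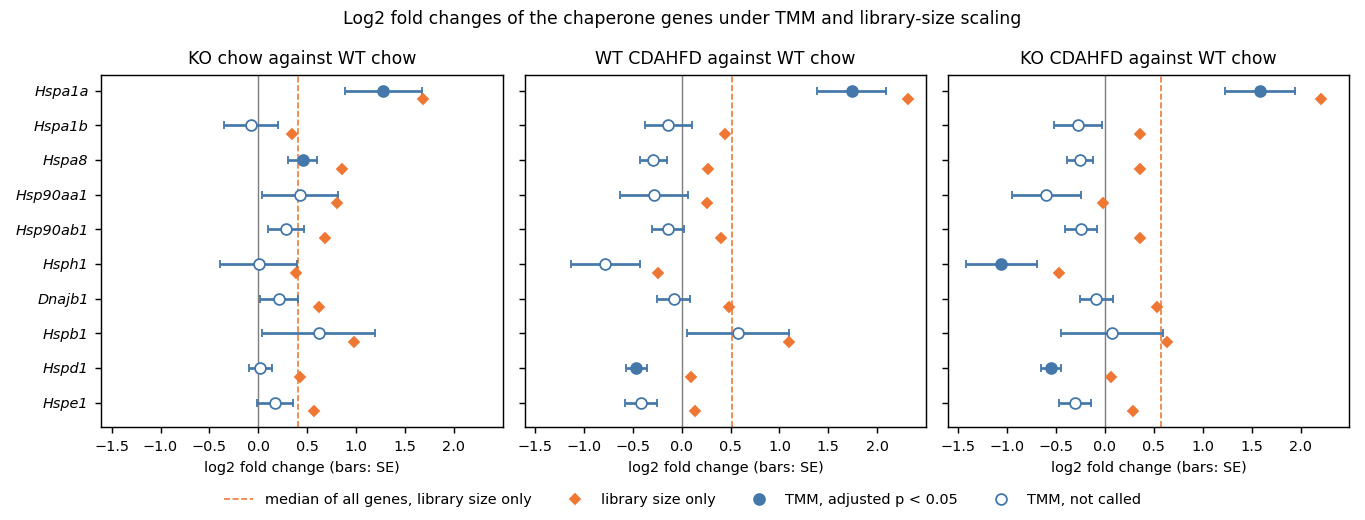
Log2 fold changes of the 10 genes against WT chow (horizontal axes) with TMM scaling (circles with SE, filled where adjusted p was below 0.05) and with library size as the only scaling (diamonds). The dashed line is the median of all genes under library-size scaling, at 0.40, 0.51 and 0.57, and Hspa1a lies over 1 log2 unit to the right of the line of its own scaling in each panel.

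Counted over the set, KO chow against WT chow gave 2 of 10 genes called, both higher. Of all 17358 genes tested, 39.0% were called in that comparison, 22.0% higher and 17.0% lower. In WT CDAHFD 2 of 10 were called, Hspa1a higher and Hspd1 lower, where 51.1% of all genes were called (26.1% higher and 25.0% lower). In KO CDAHFD 3 of 10 were called, Hspa1a higher and Hsph1 and Hspd1 lower, against 52.4% of all genes (26.9% higher and 25.4% lower). The median log2 fold change of the 10 genes was 0.25, -0.21 and -0.26 in the 3 comparisons, against 0.0022, -0.048 and -0.040 for all genes. These comparisons share the WT chow libraries. Library size alone gave 6, 2 and 3 calls, all higher, where 47.2%, 59.1% and 62.6% of all genes were called and 86% to 89.9% of these were higher. In KO chow the count was 5 without WT chow replicate 1, 1 without WT chow replicate 2, and 0 without WT chow replicate 3. Without KO chow replicate 1, where 1 KO chow library remained, Hspa1a stood at 1.01 and Hspa8 at 0.28. The share of all genes called in these fits is not given here, so the counts show only a dependence on single libraries.

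Of the direct comparisons between the other groups, KO CDAHFD against KO chow called Hspa8 and Hspd1 lower, where 2.44% of all genes were lower. KO chow against WT CDAHFD called the same 2 genes higher, where 2.71% of all genes were higher. These comparisons share the KO chow libraries, and the second differs in genotype and diet at once. The first count was 5 without WT chow replicate 1, 0 without KO CDAHFD replicate 1, and 1 without KO CDAHFD replicate 3. The second was 0 without WT CDAHFD replicate 1 or 3, and 1 without WT CDAHFD replicate 2 or KO CDAHFD replicate 1. Without KO chow replicate 1, where 1 KO chow library remained, Hspa8 stood at -0.50 and 0.55 and Hspd1 at -0.44 and 0.35 in the 2 comparisons. The share of all genes called in these fits is not given here either. Between genotypes on CDAHFD, edgeR called 0 of 10 genes, as did DESeq2, with 0 at an unadjusted p below 0.05 and 0.357% of all genes called. The largest fitted difference there was that of Hspb1 (-0.51, SE 0.56), and Hspd1 stood at -0.090 (SE 0.11). Ppara itself was not called in that comparison (-0.94, adjusted p = 0.547).

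The interaction of genotype and diet asks whether the diet effect differed between KO and WT livers. By edgeR 0 of 10 genes were called, 1 had an unadjusted p below 0.05, and DESeq2 called 1, where edgeR called 23.1% of all genes. The gene was Hspa1a, whose diet effect was 1.74 in WT and 0.31 in KO livers on the log2 scale, a difference of -1.43 (SE 0.53, adjusted p = 0.0705, and 0.0414 by DESeq2). Without WT CDAHFD replicate 3 the difference was -1.67 (adjusted p = 0.0384). The count of members was 3 without WT chow replicate 1, a fit whose share of all genes called is not given here. Library-size scaling called Hspa1a, Hspa8 and Hspd1, where 28.5% of all genes were called.

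Other genes of the chaperone network were described from lists, and their values are relative to the TMM scaling. Of 20 cochaperones of Hsp70 and Hsp90, 2 were called lower in KO chow, 10 lower and 1 higher in WT CDAHFD, and 10 lower in KO CDAHFD. The same fit called 17.0%, 25.0% and 25.4% of all genes lower and 22.0%, 26.1% and 26.9% higher in these 3 comparisons. Bag4, a BAG-domain nucleotide exchange factor, was lower in all 3 (-1.27, -1.16 and -1.35, adjusted p = 5.4e-04, 2.1e-04 and 6.3e-05), as was Cdc37l1, a relative of the kinase cochaperone Cdc37 (-0.73, -0.91 and -0.89, adjusted p = 1.4e-04, 4.7e-06 and 5.0e-06). The list's median was -0.077, -0.38 and -0.39. Under that library-size scaling 11, 6 and 6 cochaperones were called higher and 2 lower in each comparison, and Bag4 and Cdc37l1 stayed lower, on a scale where 47.2%, 59.1% and 62.6% of all genes were called, most of them higher.

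Of 8 other cytosolic J-domain proteins, 0 were called in KO chow and 5 were lower in each CDAHFD group. Among all genes, 25.0% were lower in WT CDAHFD and 25.4% in KO CDAHFD. Dnaja1, an Hsp70 partner in protein import and refolding, was lower in WT CDAHFD (-0.75, SE 0.13, adjusted p = 4.7e-04) and KO CDAHFD (-0.62, SE 0.13, adjusted p = 0.00162). Dnajb6, which holds aggregation-prone peptides, was lower by the same test (-0.50 and -0.56), and Dnajb4 was lower in WT CDAHFD (-0.52). Of the 8 subunits of the cytosolic chaperonin TRiC, which folds actin and tubulin, 5 were lower in WT CDAHFD and 4 in KO CDAHFD. Tcp1 led these (-0.60 and -0.69, adjusted p = 6.2e-05 and 1.7e-05), with Cct6a (-0.52) and Cct8 (-0.42) in WT CDAHFD. Without TMM factors no J-domain or TRiC gene was called lower in these comparisons, 2 J-domain genes in each and 3 and 5 TRiC genes were called higher, and Cct6a, Cct8, Dnajb4 and Dnajb6 turned to small positive values. On that scale 59.1% and 62.6% of all genes were called in the CDAHFD groups, most of them higher.

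Among 13 other mitochondrial chaperones and proteases, 3 were lower and 1 higher in KO chow, 6 lower and 1 higher in WT CDAHFD, and 8 lower and 1 higher in KO CDAHFD. The shares of all genes in these comparisons were 17.0%, 25.0% and 25.4% lower and 22.0%, 26.1% and 26.9% higher. Trap1, the Hsp90 of the mitochondrion, was lower in all 3 (-0.49, -0.58 and -0.74, adjusted p = 0.00218, 1.5e-04 and 1.8e-05). Dnaja3, the matrix J-domain protein, was lower in both CDAHFD groups (-0.61 and -0.72), and Clpp, the catalytic subunit of a matrix protease, in WT CDAHFD (-0.82, adjusted p = 0.00171). Lonp1, another matrix protease, was higher in KO chow (0.60, SE 0.10, adjusted p = 5.8e-04). With library size as the only scaling the balance turned, with 5, 7 and 7 of the list called higher and 0 lower, and the calls for Trap1, Dnaja3 and Clpp were not made. This scaling called 47.2%, 59.1% and 62.6% of all genes, most of them higher. Of 13 endoplasmic reticulum chaperones, 0, 2 and 4 were lower in the 3 comparisons, Dnajc3 among them in WT CDAHFD (-0.71) and KO CDAHFD (-0.97). Library-size scaling called 0 of them lower in any of these, and Dnajc3 lost both calls (-0.16 and -0.37, adjusted p = 0.446 and 0.0811). Their summed level ran from 3895 to 9279 CPM within WT chow alone.

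Of 5 other small heat shock proteins, 1 was lower in each of KO chow and WT CDAHFD, and 2 were lower and 1 higher in KO CDAHFD. All genes gave 17.0%, 25.0% and 25.4% lower and 22.0%, 26.1% and 26.9% higher in the same comparisons. Hspb6 was below its WT chow level in each of the other groups (-1.16, -1.27 and -1.53, adjusted p = 1.1e-04, 9.1e-06 and 1.9e-06), also under library-size scaling (-0.76, -0.72 and -0.93). Cryab, the lens and muscle protein alphaB-crystallin, was higher in KO CDAHFD (1.41, SE 0.25, adjusted p = 4.4e-04). Of the 7 other Hsp70 and Hsp110 genes of the cytosol, 1 was higher in KO chow, 1 lower in WT CDAHFD, and 1 higher and 1 lower in KO CDAHFD. Library-size scaling called 4 higher and 0 lower in each, where it called 47.2%, 59.1% and 62.6% of all genes, most of them higher.

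Of the transcription factors, Hsf1, the main activator of the heat shock response, was at 18.6 to 24.2 CPM in WT chow, 19.1 to 19.9 in WT CDAHFD, 22.3 and 17.0 in KO chow and 17.3 to 21.1 in KO CDAHFD, and was not called against WT chow. Hsf2, a second heat shock factor, was lower in WT CDAHFD (-0.76, SE 0.13, adjusted p = 3.3e-04) and KO CDAHFD (-0.66, SE 0.13, adjusted p = 8.3e-04). Without TMM factors these were -0.19 and -0.05 and were not called. Of 8 immediate early genes, which respond within minutes to handling and other stimuli, KO chow had 3 higher, WT CDAHFD 5 and KO CDAHFD 4. Among all genes, 22.0%, 26.1% and 26.9% were higher. The immediate early genes summed to 209 to 247 CPM in WT chow, 354 to 454 in WT CDAHFD, 273 and 353 in KO chow and 283 to 367 in KO CDAHFD. Whether they share a source with Hspa1a was not tested.

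**Figure D5:**
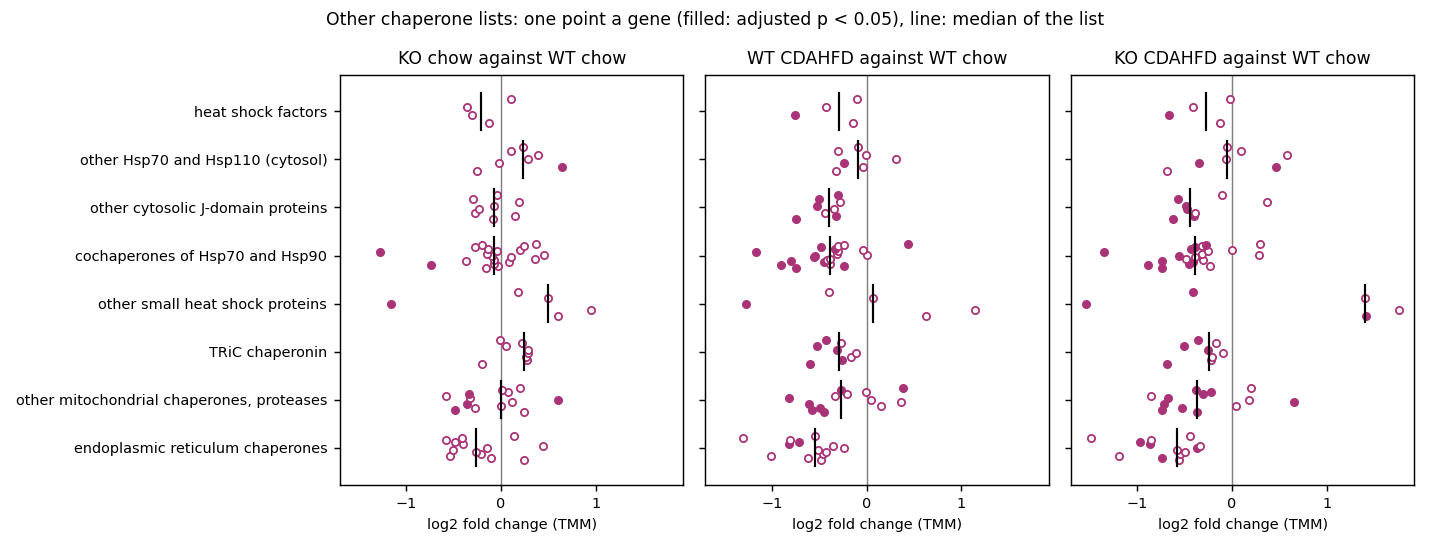
Log2 fold changes against WT chow (horizontal axes, TMM scaling) of the genes in 8 lists of heat shock factors and other chaperones. Each point is 1 gene, filled where adjusted p was below 0.05, and the black line is the list's median, which for cochaperones stood at -0.077, -0.38 and -0.39 from the left panel to the right.

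Genes whose within-group deviations were most like the mean profile of Hspa1a, Hspa1b, Hsph1, Dnajb1 and Hsp90aa1, over 12 libraries and 12895 genes that averaged 50 counts or more, were Piga (r = 0.913), Usp14 (0.90) and Cybc1 (0.896). For the Hspd1 and Hspe1 profile they were Ebp (r = 0.981), Sem1 (0.966) and Pdcl3 (0.966). The latter profile had r = 0.777 with Arntl and -0.792 with Dbp, and the former 0.08 and -0.15. The former averages unlike genes, whose own r with it ran from 0.386 (Hsp90aa1) and 0.449 (Dnajb1) to 0.643 (Hspa1a). Its values with the clock genes therefore do not describe each cytosolic chaperone. These are descriptions, since all points share libraries and scaling factors.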

How the data were processed

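Poly(A)-selected, non-directional RNA-seq libraries of whole snap-frozen liver were sequenced on a NovaSeq by a provider. The deposited table holds raw gene counts that the authors made after quality control with FastQC 0.11.5 and alignment with STAR 2.7.3a to GRCm38, per the submitters' processing notes. The counting program and annotation release are not given in the sources used here. The authors list DESeq2 as well, but no output of it was used. Because strand was not kept, reads from overlapping genes on opposite strands cannot be told apart, and reads shared by near-identical copies depend on how the counter treats multiple hits.

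Gene symbols, exon lengths and coordinates came from GENCODE M21 (GRCm38), which held 94.08% of the identifiers. Genes were filtered with filterByExpr (17358 kept), scaled by TMM, and fitted with edgeR 4.0.16 (R 4.3.3) by glmQLFit over all 12 libraries with 4 group means. Contrasts were tested with glmQLFTest, two-sided, and p-values were adjusted by Benjamini-Hochberg over all genes tested, with a threshold of 0.05. SE is the absolute log2 fold change over the square root of F. CPM use TMM library sizes. Alternatives were DESeq2 1.42.0, library size as the only scaling, no filter beyond 1 count in a library, only the libraries compared, a replicate block, the clock score as a covariate, each library left out, summed Hspa1a and Hspa1b, and, chosen after seeing the data, only libraries with Arntl above Dbp. The fit was run on simulated counts in which few genes changed, as many up as down. That setting has no broad shift between groups, so it does not test the choice of scaling.

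The genes, lists and tests were chosen with earlier results of these data known. From each list at most 3 called genes with a large change and a mean of at least 50 counts were named. Labels number the replicates but do not tie numbers across groups. Deviations of same-numbered libraries correlated between -0.242 and 0.266, so the numbers were not taken as pairs. Libraries are separate mice per the study's methods. Group sizes follow the labels, which give 4 WT chow, 3 WT CDAHFD, 2 KO chow and 3 KO CDAHFD libraries. The study's methods instead speak of 3 mice in each group, and this difference was not resolved. Promoter windows came from RefSeq tables, shares from exact counts, and alignments from Biopython 1.88.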

Additional observations from a re-analysis of the deposited data

Results flagged for a closer look

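For 4 genes of the wider chaperone lists, the effect of CDAHFD differed between KO and WT livers by the interaction term of edgeR's fit. They were 2 of 20 cochaperones, 1 of 5 other small heat shock proteins and 1 of 13 other mitochondrial chaperones and proteases. The other chaperone lists had 0 called, while 23.1% of all genes were called in this contrast, so the lists do not stand out. For Bag4, the diet effect was -1.16 in WT and -0.08 in KO livers on the log2 scale, a difference of 1.08 (SE 0.29, adjusted p = 0.0161). Its level was 42.3 ± 12.1 CPM (SD, n = 4) in WT chow and 15.6 to 20.3 in the other libraries. The call was lost without KO chow replicate 1 (1.06, adjusted p = 0.0575) or 2 (1.08, adjusted p = 0.0521). For Cdc37l1, the effects were -0.91 and -0.16, a difference of 0.75 (SE 0.14, adjusted p = 0.00211), with 77.0 to 93.2 CPM in WT chow and 42.5 to 51.2 elsewhere. For Hspb6, the effects were -1.27 and -0.37, a difference of 0.90 (SE 0.22, adjusted p = 0.00896), with 15.6 to 20.9 CPM in WT chow and 5.80 to 8.54 elsewhere. Under library-size scaling these 3 differences were 0.72, 0.40 and 0.55 and missed the threshold (adjusted p = 0.0522, 0.0654 and 0.0829).

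For Lonp1, the diet effect was 0.05 in WT and -0.42 in KO livers, a difference of -0.47 (SE 0.14, adjusted p = 0.0324). Both KO chow libraries were at 313 CPM, above the WT chow libraries (193 to 217), the WT CDAHFD libraries (203 to 229) and the KO CDAHFD libraries (216 to 250). This call was lost without WT CDAHFD replicate 1 (-0.42, adjusted p = 0.0889) or 3 (-0.48, adjusted p = 0.0586), either KO chow library (-0.48 and -0.48, adjusted p = 0.0669 and 0.078) or KO CDAHFD replicate 3 (-0.42, adjusted p = 0.0539).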

How the results depend on the processing

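For the 56 log2 fold changes of named genes, 955 of 1062 alternative values kept the direction and the side of the threshold, 69 lost the call, 18 gained it and 20 changed sign. Of these 955, 625 came from leaving out a library, which includes libraries of groups not compared, so the total does not measure stability. Library size as the only scaling kept 22 values, while 22 lost the call, 4 gained it and 8 changed sign. With library size as the only scaling, values below 0 turned positive for Hspd1 (0.097 in WT CDAHFD and 0.057 in KO CDAHFD), Hspe1 (0.14), Cct6a (0.035), Cct8 (0.13), Dnajb4 (0.052) and Dnajb6 (0.062 and 0.053), all in comparisons with WT chow. This setting called 6 of the 10 chaperones in KO chow against WT chow, 0 in KO CDAHFD against KO chow, 0 in KO chow against WT CDAHFD and 3 in the interaction, where it called 47.2%, 7.97%, 7.3% and 28.5% of all genes. Hspa1a summed with Hspa1b stood at -0.12 in KO CDAHFD.

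Only the libraries of the groups compared gave 1 call in KO chow against WT chow and 0 in KO CDAHFD against KO chow. Every gene with a count gave 4 in KO CDAHFD against KO chow and 1 in the interaction, where DESeq2 also gave 1. The clock score as a covariate gave 4 in WT CDAHFD against WT chow and 5 in KO chow against WT CDAHFD, and Hspb1 at 0.072 in KO CDAHFD against WT CDAHFD. Only libraries with Arntl above Dbp, which left 1 KO chow library, put Hspb1 at -0.076 in WT CDAHFD and -0.47 in KO CDAHFD against WT chow.

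The replicate block gave 1 call in KO chow against WT chow, 0 in KO CDAHFD against KO chow and 0 in KO chow against WT CDAHFD, losing Hspa8 in each (adjusted p = 0.101, 0.0764 and 0.0569) and Hspd1 in the last 2 (adjusted p = 0.0695 and 0.117), and no change beyond 1.5 times elsewhere. With each library left out, the count of calls ran from 0 to 5 in KO chow against WT chow, 0 to 5 in KO CDAHFD against KO chow, 0 to 2 in KO chow against WT CDAHFD and 0 to 3 in the interaction. Hspb1 ran from -0.21 to 1.52 in KO chow and from -0.18 to 0.99 in KO CDAHFD, and Hsp90aa1 from -0.024 to 0.93 in KO chow. Hspd1 ran from -0.084 to 0.13 in KO chow and from -0.23 to 0.0030 in the interaction. Counts in this and the preceding paragraph lack the share of all genes called in the same setting. They show only how the calls shift. Depth limits Hspa1a, at 16 to 34 counts in WT chow, and the 2 KO chow libraries limit each comparison with that group. Except for the scaling, the cause of these shifts was not tested.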
